A study of Mus musculus with 15 samples.

Results

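Methotrexate-treated livers were compared with untreated livers across every gene counted, with the 5 MTX and the 5 control libraries of a series of 15 libraries. All libraries came from whole liver of wild-type (WT) mice, and the mice of the MTX group had received 20 mg/kg methotrexate by intraperitoneal injection 24 h before the liver was taken. The remaining 5 libraries came from mice that had drunk water with 2 mM nitrate for 5 days and then received the same dose (MTX+nitrate). They entered the fit to estimate the spread between libraries, and their values are given beside some results. Strain, age and sex were not used here, and nothing in the labels ties 1 library to 1 mouse, so the p-values rest on the spread among libraries, which may be technical.

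Methotrexate is a folate analogue that blocks dihydrofolate reductase and so limits the one-carbon units needed to build purines and thymidylate. Hepatocytes take it up and store it as polyglutamates, and they also secrete most plasma proteins, including those that rise in the acute phase response to injury. Besides hepatocytes, liver holds endothelial cells, resident macrophages, stellate cells and bile duct cells. In RNA from whole liver, fewer cells of a type and less RNA per cell cannot be told apart.

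The libraries held 16663967 to 18626574 counts in control and 17348176 to 17933058 in MTX. The defining hepatocyte transcripts were abundant in every library, with 15 hepatocyte markers summing to between 123295 and 158436 CPM (counts scaled to library size, with TMM factors) in control and between 158077 and 175238 in MTX. Of 16 adipose, pancreatic and muscle markers, only 2, Cela1 and Des, were high enough to be tested. Of 6 measures compared per library, the share of counts in long non-coding RNA genes differed after adjustment. It was 0.419% to 0.525% in control and 0.343% to 0.388% in MTX (exact permutation test, two-sided, p = 0.00794, adjusted p = 0.0476), with all 5 MTX libraries below all 5 control libraries. With any 1 library left out, the adjusted p was 0.0952, the smallest that 9 libraries allow. The number of genes with at least 1 count was 18974 to 19869 in control and 18781 to 19046 in MTX (exact permutation p = 0.0556, adjusted p = 0.167).

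Of 14219 genes tested, 521 (3.66%) were called at an adjusted p under 0.05 by edgeR's quasi-likelihood test with Benjamini-Hochberg adjustment. Of these, 293 (2.06%) were higher in MTX and 228 (1.6%) were lower, and 133 differed by at least 1 on the log2 scale. Of the called genes, 481 were protein-coding, 10 were long intergenic non-coding RNAs and 10 were processed pseudogenes. In 770 genes (5.42%), the MTX libraries did not overlap the control libraries, 448 above them and 322 below. The number of calls moved with single libraries. It was 86, 89 and 237 without MTX library 2, 1 or 4, and 112, 192, 248 and 250 without control library 1, 3, 4 or 5. It was 995 without MTX library 5. Called in the fit over all libraries and in each of the 10 fits that left out a library were 71 genes (0.499%), 45 higher and 26 lower. The leading genes outside the lists were named by a rule, given with the processing. It required a call in all 10 fits and no overlap between the groups. For these genes, such as Lrg1 and Sp4, both traits were thus fixed by the choice. Where a gene lost its call in any of these 10 fits, its adjusted p below is mostly followed by the highest among them. The library left out is given with it.

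The genes that were lower had longer transcripts than those that were higher. Median transcript length was 5020.5 bases for genes called lower, 1969 for genes called higher and 3183 over all genes tested. Of 10 equal classes of genes by transcript length, the class with the shortest transcripts had 59 genes called higher and 10 lower, and a median log2 fold change of 0.16. The class with the longest transcripts had 4 called higher and 72 lower, and a median of -0.16. A correction for length and GC content brought these medians to 0.06 and 0.01 and left 364 calls, of which 254 were higher and 110 lower. The share of calls that were higher thus moved from 56.2% to 69.8%. An adjusted p marked as corrected below is the one after this correction, given where a call was lost. The part of transcript length in each result was not tested otherwise.

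**Figure D1:**
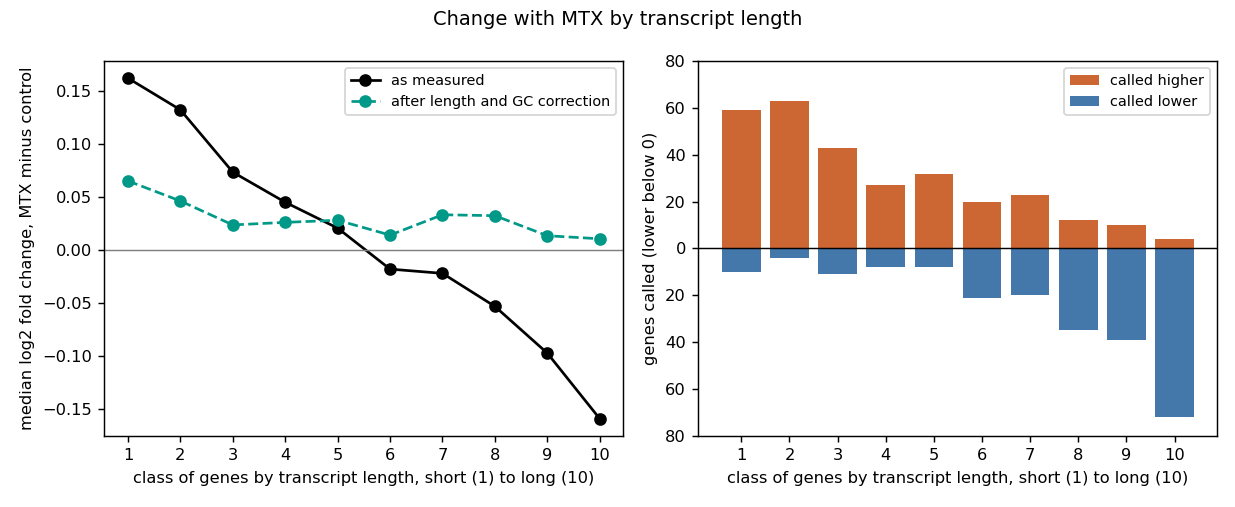
Change between MTX and control in 10 equal classes of tested genes, ordered from short to long transcripts. Left, the median log2 fold change as measured and after the length and GC correction. Right, genes called higher (above 0) and lower (below 0). The measured median falls from 0.16 to -0.16, and calls pass from mostly higher, 59 against 10, to mostly lower, 4 against 72.

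Transcripts of several proteins that the liver secretes into plasma were higher in MTX. Lrg1 (chromosome 17, 56119678 to 56122001, minus strand, GRCm38) encodes leucine-rich alpha-2-glycoprotein, a plasma protein made by hepatocytes. Its level was 229, 263, 319, 325 and 300.4 CPM in control libraries 1 to 5 and 1195, 779, 519, 648 and 800.2 CPM in MTX libraries 1 to 5. The groups did not overlap, with MTX library 1 the highest and library 3 the lowest of the MTX group. Lrg1 rose 2.74-fold (log2 fold change 1.46 ± 0.19 SE, adjusted p = 0.00123). It stayed called in each fit that left out a library, as the rule that named it required.

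Fgl1 (chromosome 8, 41191434 to 41215156, minus strand), a secreted fibrinogen-like protein of hepatocytes, was at 108, 246, 167, 285 and 317 CPM in control and 841, 646, 442, 496 and 920.4 CPM in MTX. It rose 2.98-fold (adjusted p = 0.00686), with libraries 1 and 5 highest in MTX and the groups apart. Hpx (chromosome 7, 105591613 to 105600137, minus strand), encoding the heme scavenger hemopexin, rose 2.07-fold from 2709 ± 439.5 CPM (mean ± SD, n = 5 here and below) to 5601 ± 1700.2 CPM (adjusted p = 0.00883). Orm1 (chromosome 4, 63344560 to 63348163, plus strand), encoding an alpha-1-acid glycoprotein, rose 1.85-fold from 457 ± 52.4 to 845 ± 198 CPM (adjusted p = 0.00287), although reads of the near-identical Orm genes may be split between them. For all 4 genes, the MTX library with the lowest level was library 3 or 4 and the highest was library 1 or 5.

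The 3 fibrinogen chain genes, which lie next to each other on chromosome 3, rose together. They were the 3 of 15 hepatocyte markers that were called, against 3.66% of all genes, and the median log2 fold change of the 15 was 0.25, against -0.0007 over all genes tested. Fga was at 5044, 5652, 6078, 6549 and 6871 CPM in control and 9880.3, 9495, 7794, 8391 and 10330.3 CPM in MTX, with the groups apart, and rose 1.52-fold (adjusted p = 0.0143). Fgb rose 1.45-fold (adjusted p = 0.0253) and Fgg 1.46-fold (adjusted p = 0.0241). Fga was called in each fit that left out a library, while Fgg and Fgb reached adjusted p of 0.0653 without control library 1 and 0.0688 without MTX library 1. Both albumin (Alb, log2 fold change 0.14 ± 0.13, adjusted p = 0.542) and transthyretin (Ttr, 0.11 ± 0.09, adjusted p = 0.519) missed the threshold.

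Transcripts of further secreted proteins, chosen after their values were seen, were also higher, by 1.28-fold to 2.12-fold. Itih4, an inter-alpha-trypsin inhibitor heavy chain, rose 1.57-fold to 3418 ± 668 CPM (adjusted p = 0.0195; 0.0571 without MTX library 1), and complement C3 rose 1.44-fold to 17023 ± 2411 CPM (adjusted p = 0.0302; 0.0762 without MTX library 1). Apcs, encoding serum amyloid P component, was at 122, 274, 259, 307 and 426 CPM in control and 978, 435, 604, 461 and 466 CPM in MTX. MTX library 1 stood highest for Apcs and the other MTX libraries lay above the highest control library, and the gene rose 2.12-fold (adjusted p = 0.0354; 0.0998 without MTX library 1). Vtn, encoding vitronectin, rose 1.3-fold (adjusted p = 0.031; 0.0815 without control library 1; 0.0849 after the length and GC correction), Ambp, encoding alpha-1-microglobulin and bikunin, 1.28-fold (adjusted p = 0.0253; 0.0711 without MTX library 1; 0.107 after it), and the serine protease inhibitor gene Serpina3m 1.43-fold (adjusted p = 0.0243; 0.0693 without MTX library 2).

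**Figure D2:**
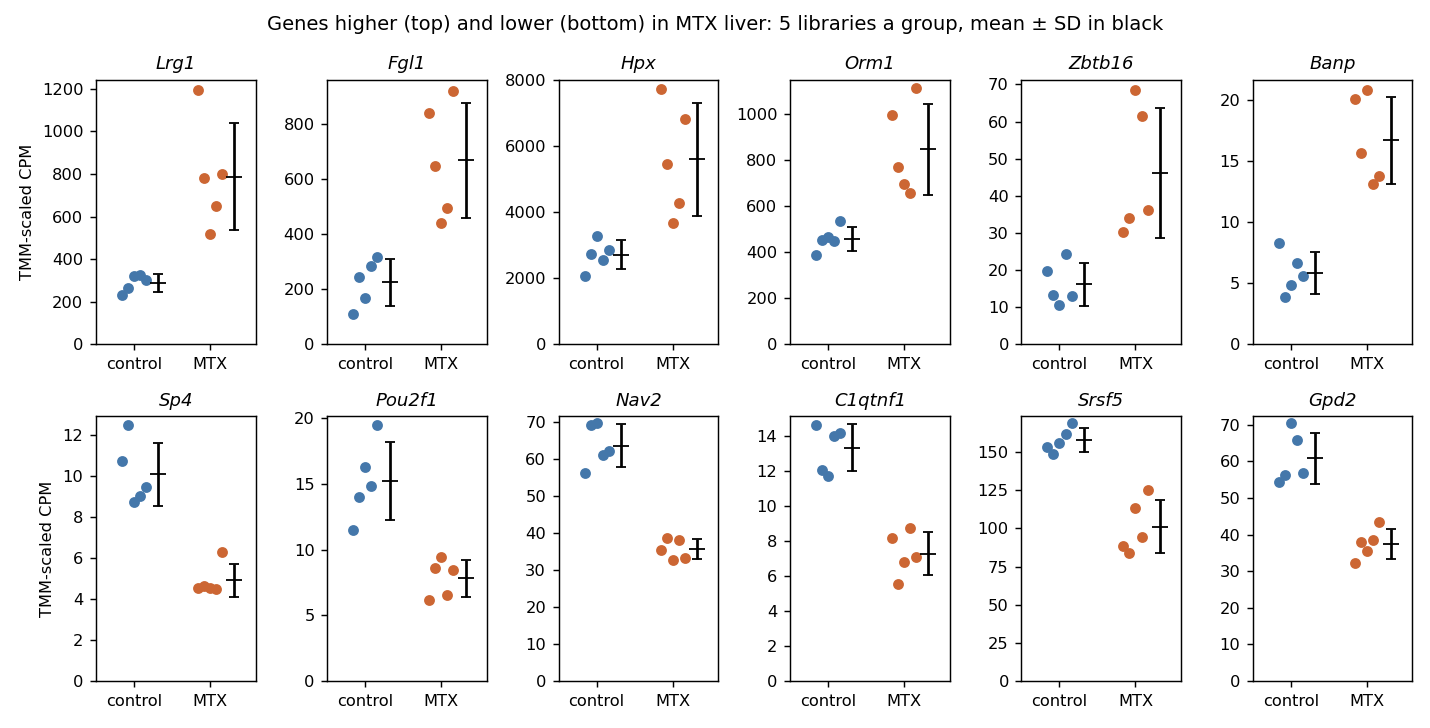
TMM-scaled CPM of 6 genes higher (top) and 6 genes lower (bottom) in MTX liver, each dot 1 library, with the mean ± SD of 5 libraries in black. In each of the 12 genes the 5 MTX libraries do not overlap the 5 control libraries, which the rule that named these genes required. Lrg1 reaches 1195 CPM in MTX library 1, and Sp4 stays between 4.49 and 6.29 CPM in MTX.

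A set of phagocyte and inflammatory cell genes included large factors, and its members were unequal among the MTX libraries. These 21 genes were chosen after their values were seen, all of them called higher. Their count, the size of their changes and the gap between the groups in their summed level follow from that choice and are a description. Gpnmb (chromosome 6, 49036546 to 49070929, plus strand), a glycoprotein of lipid-laden and phagocytic macrophages, was at 0, 0.39, 0.277, 0 and 0 CPM in control and 22.2, 10.1, 0.175, 3.02 and 16.1 CPM in MTX. MTX libraries 1 and 5 were highest, library 2 and then library 4 followed, and library 3 lay within the control range (log2 fold change 6.20 ± 1.10, adjusted p = 0.00994). Lgals3, encoding the carbohydrate-binding galectin-3 of macrophages, was at 3.3, 2.17, 2.27, 0.999 and 1.74 CPM in control and 23.6, 14.9, 2.91, 6.22 and 25.5 CPM in MTX (log2 fold change 2.80 ± 0.48, adjusted p = 0.00883). Prtn3, the neutrophil granule protease proteinase 3, was at 0.486, 0.835, 0.998, 0.946 and 0.419 CPM in control and 12.4, 6.39, 0.99, 3.63 and 13.4 CPM in MTX (log2 fold change 3.30 ± 0.58, adjusted p = 0.00953). The same order of libraries appeared in all 3 genes, apart from which of libraries 1 and 5 was on top, and all 3 stayed called in each fit that left out a library. None of the 3 was called by limma-voom, where the adjusted p was 0.175 for Gpnmb, 0.0597 for Lgals3 and 0.0918 for Prtn3.

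Summed over the 21 genes, MTX libraries 1 to 5 held 232, 144, 44.4, 82.5 and 289 CPM, and the control libraries held 34.8 to 48.4 CPM. Library 1 or 5 was the highest MTX library for 20 of the 21 genes, library 3 was the lowest for 17 and library 4 for the other 4. In MTX library 3, only 4 of the 21 genes lay above all control libraries. The MTX+nitrate libraries summed to 41.6 to 74.02 CPM. Leaving out MTX library 1 or 2 left 3 of the 21 genes called, leaving out control library 1 left 4 and control library 3 left 5, and leaving out MTX library 3 left all 21. The other methods differed: DESeq2 called all 21, the fit over the control and MTX libraries only called 9, limma-voom 5 and a replicate block 4. The length and GC correction left 19 called.

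Among these genes, Mmp12, the macrophage elastase, was at 0.649, 1.56, 0.832, 0.21 and 0.18 CPM in control and 13.3, 4.63, 0.233, 4.62 and 13.3 CPM in MTX (adjusted p = 0.031; 0.0764 without control library 1). Acod1, which makes the antimicrobial metabolite itaconate, was at 0.054, 0, 0, 0 and 0 CPM in control and 1.79, 1.17, 0.116, 0.677 and 1.57 CPM in MTX (adjusted p = 0.0218; 0.0681 without control library 1), so that 4 control libraries had no count. The integrin chain Itgb2, shared by leukocytes, rose 2.39-fold to 16.6 ± 8.92 CPM (adjusted p = 0.0344; 0.0855 without MTX library 1). Cd44, a hyaluronan receptor, rose 2.6-fold to 18.1 ± 10.5 CPM (adjusted p = 0.0417; 0.0889 without MTX library 1). Il1rn, the antagonist of the interleukin-1 receptor, rose 4.99-fold to 10.3 ± 7.66 CPM (adjusted p = 0.03; 0.0788 without MTX library 1). The other members, among them the receptor genes Trem2, Plaur, Ccr1 and Ptafr, the chemokine Ccl6 and the actin-capping protein Capg, had adjusted p between 0.0208 (Parvg) and 0.0468 (Ccl6).

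The marker lists of the inflammatory cells were called less evenly. Of 19 macrophage and monocyte markers, 2 (10.5%) were called higher (Itgax and F13a1), against 2.06% of all genes. Itgax (adjusted p = 0.0205) stayed called in 9 of the 10 fits that left out a library, and F13a1 (adjusted p = 0.0493) in 1. Both lost the call under limma-voom. Of the 19, 16 had a positive log2 fold change, with a median of 0.27, and 1 was called after the length and GC correction. Their summed level was 333 to 596 CPM in control and 403 to 591 CPM in MTX, and these ranges overlap. The resident macrophage marker Clec4f was at 98 ± 20.9 CPM in control and 98.8 ± 16 CPM in MTX (adjusted p = 0.973), and the macrophage receptor Csf1r at 52.1 ± 17.3 and 49 ± 12.3 CPM (adjusted p = 0.84). Of 15 neutrophil markers, 6 were high enough to be tested, and all 6 had a positive log2 fold change. Their summed level was 57.5 to 132 CPM in control and 209 to 628 CPM in MTX, without overlap, but Lcn2, which injured hepatocytes also make, was the only one called. Without Lcn2 the sum of the other 5 was 49.5 to 123 CPM in control and 138 to 208 CPM in MTX. Of 16 lymphocyte markers, 5 were tested and none was called (0 by edgeR, 0 by DESeq2 and 0 at an unadjusted p under 0.05; the lowest adjusted p was 0.528, of Gzma).

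**Figure D3:**
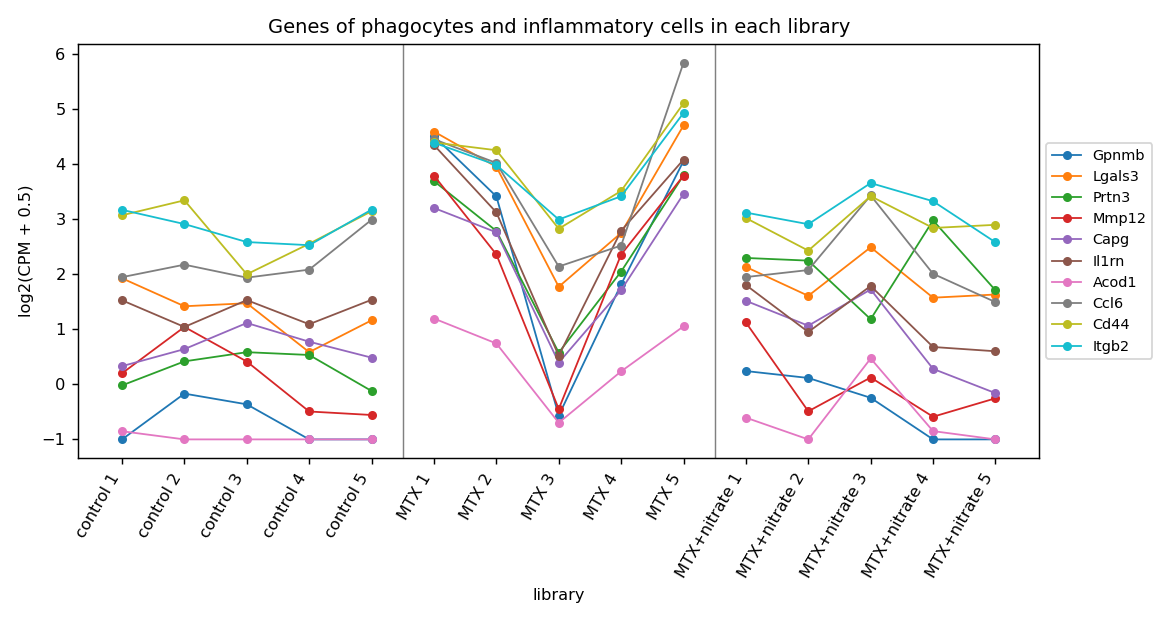
Levels of 10 of the 21 phagocyte and inflammatory cell genes in each library, as log2(CPM + 0.5); lines join the values of 1 gene within a group, and the libraries have no order. MTX libraries 1 and 5 are highest, library 2 and library 4 lie between, and MTX library 3 lies near the control libraries. The MTX+nitrate libraries are shown for comparison.

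Translation and ribosome assembly genes leaned upwards, mostly below the threshold for single genes. Of 79 mitochondrial ribosomal protein genes, 6 were called higher and none lower, against 2.06% of all genes called higher, and 71 had a positive log2 fold change with a median of 0.19. The 6 were Mrps24, Mrpl49, Mrpl17, Mrpl52, Mrpl34 and Mrpl57, structural proteins of the mitochondrial ribosome. Mrps24 was at 34.7, 39, 37.5, 41.6 and 39.3 CPM in control and 55, 55.6, 48.5, 50.9 and 48 CPM in MTX and rose 1.34-fold (adjusted p = 0.0196; 0.0586 without MTX library 2), with the groups apart. Of 58 ribosome biogenesis and nucleolar genes, 55 had a positive log2 fold change with a median of 0.25. Of the 58, 1 (1.72%) was called higher, against 2.06% of all genes, and it was Fbl, the methyltransferase fibrillarin. Fbl was at 22.6, 21.8, 24.4, 26 and 23.5 CPM in control and 31.8, 33.2, 31.7, 32.2 and 24.9 CPM in MTX, where library 5 was close to the controls and the others lay above them (1.3-fold, adjusted p = 0.0329; 0.0838 without MTX library 2).

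Of 52 translation initiation and elongation factor genes, 5 (9.62%) were called higher, Eef1g, Eif3i, Eif5a, Eif1a and Eef1d, against 2.06% of all genes. Of the 52, 43 had a positive log2 fold change with a median of 0.15. Eef1g, a subunit of the exchange factor that recharges the elongation factor, rose 1.34-fold from 139 ± 10.4 to 187 ± 21.5 CPM (adjusted p = 0.0329; 0.0822 without control library 1; corrected 0.0665). Eif5a, a factor that eases stalled ribosomes forward, was at 324, 338, 348, 337 and 332 CPM in control and 430.0, 426, 429, 421 and 349 CPM in MTX (1.22-fold, adjusted p = 0.0398; 0.0956 without MTX library 1; corrected 0.171). MTX library 5 was the lowest of its group for both Eef1g and Eif5a. Over all genes tested, 7096 of 14219 had a positive log2 fold change. After the length and GC correction, the medians were 0.17, 0.25 and 0.14 for the mitochondrial ribosome, ribosome biogenesis and translation factor genes, and 4, 3 and 3 members were called. The calls depended on single libraries. With MTX library 5 left out, 16, 7 and 9 members of these lists were called higher. In some other fits with a library left out, none of a list was called, while Mrps24 was called in 7 of the 10 fits.

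Genes of the endoplasmic reticulum, the vacuolar proton pump and lysosomes leaned the same way, with few called. Of 25 genes of the endoplasmic reticulum translocon and signal peptidase, 19 had a positive log2 fold change with a median of 0.16, and none was called by edgeR, with 8 at an unadjusted p under 0.05 and 1 called by DESeq2 (lowest adjusted p 0.0529, of Srp14, a subunit of the signal recognition particle). Dad1, a subunit of the oligosaccharyltransferase, rose 1.43-fold from 56.3 ± 3.5 to 80.7 ± 14.2 CPM (adjusted p = 0.0284; 0.0748 without MTX library 2). It was 1 of 2 called among 48 N-glycosylation genes (4.17%), both higher, against 2.06% of all genes called higher. Of 17 genes of the vacuolar proton pump, which acidifies lysosomes, 1 (5.88%) was called, Atp6v1g1. It was at 39.8, 48.5, 43.1, 39.3 and 37.2 CPM in control and 59.6, 73.7, 57.1, 59.6 and 61.9 CPM in MTX, with the groups apart, and rose 1.5-fold (adjusted p = 0.00287). Of 47 lysosomal genes, 1 (2.13%) was called, about the 2.06% of all genes called higher, and 2 after the length and GC correction. Of the 47, 36 had a positive log2 fold change with a median of 0.09. The protease cathepsin D gene Ctsd rose 1.31-fold to 227 ± 15.7 CPM (adjusted p = 0.0108).

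**Figure D4:**
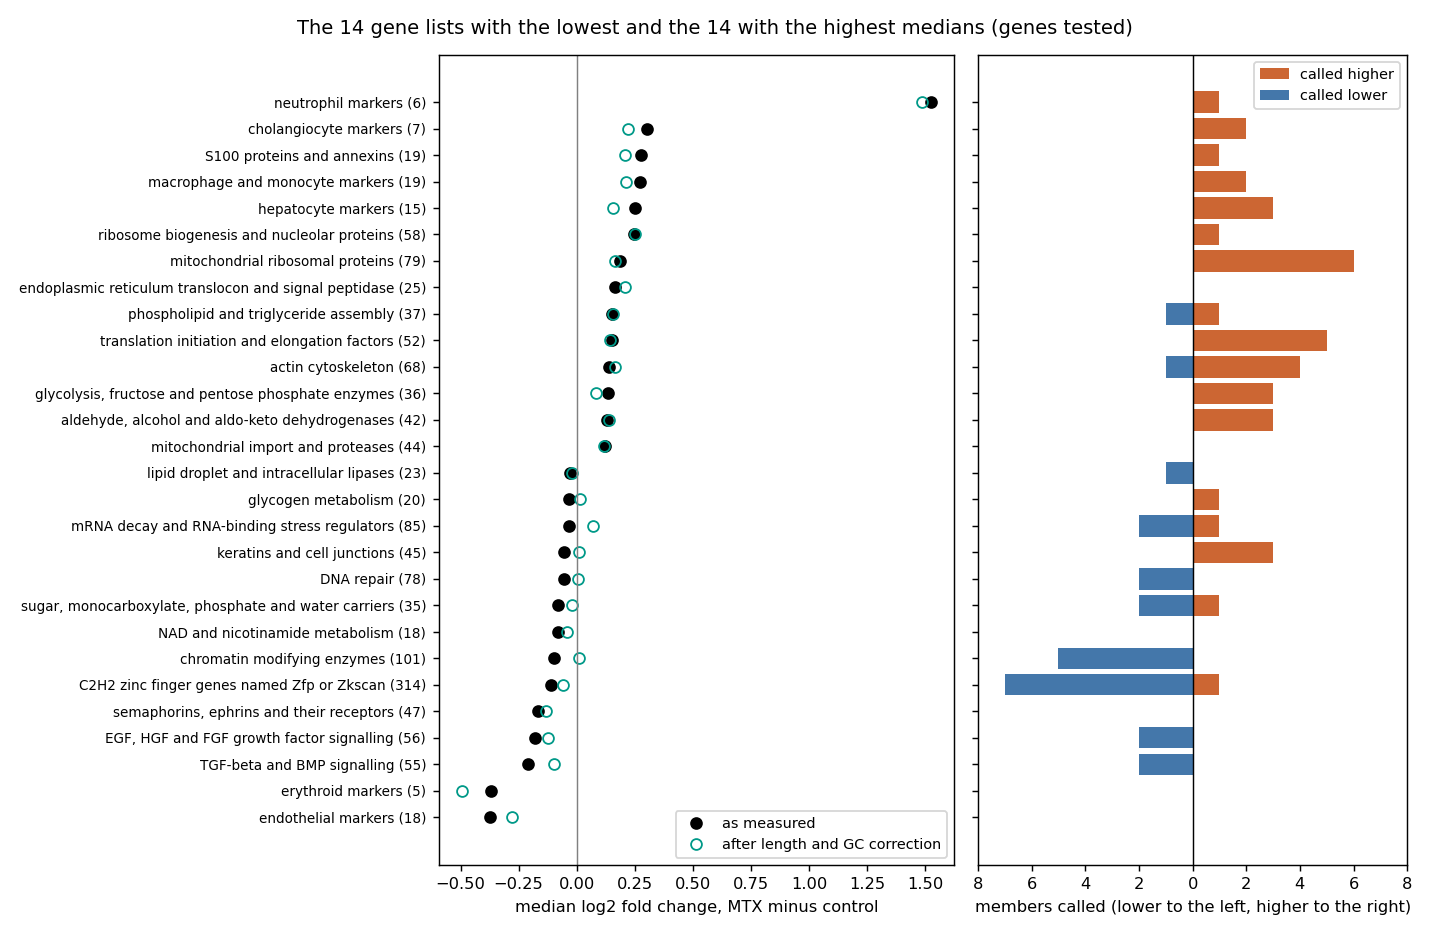
Left, the median log2 fold change (MTX minus control) of the 14 gene lists with the highest and the 14 with the lowest medians among lists with at least 5 members tested, as measured (filled) and after the length and GC correction (open). Right, members called lower (left of 0) and higher (right of 0), with the number tested in parentheses. Mitochondrial ribosomal proteins have 6 members higher and none lower, and the zinc finger genes have 7 lower and 1 higher.

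Several cytoskeleton and surface genes were higher. Arpc1b (chromosome 5, 145114215 to 145130705, plus strand), a subunit of the complex that branches actin filaments, was at 35, 36.8, 31.3, 38.6 and 33.8 CPM in control and 63.5, 54.7, 49.3, 46.2 and 65.6 CPM in MTX. The groups were apart, and it rose 1.59-fold (adjusted p = 0.00287). Of 68 actin cytoskeleton genes, 4 were called higher (Arpc1b, Cfl1, Coro1a and Capg) and 1 lower (Myh10), against 2.06% and 1.6% of all genes, and 51 had a positive log2 fold change. With the length and GC correction, 6 were called higher and none lower. Cfl1, the filament-severing cofilin, rose 1.27-fold (adjusted p = 0.0245; 0.0668 without MTX library 1). Coro1a, a coronin of leukocytes, and Capg follow the library order of the phagocyte genes given above.

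Tubulin genes varied in another way among the MTX libraries. Tubb2a was at 26.9, 60.8, 27, 25.5 and 35.7 CPM in control and 94, 183, 86.1, 115 and 53 CPM in MTX (3.02-fold, adjusted p = 0.0321; 0.0838 without MTX library 2), and Tubb4b at 54.7, 63.1, 45.6, 36.2 and 56.7 CPM in control and 116, 193, 133, 128 and 56.5 CPM in MTX (2.44-fold, adjusted p = 0.0291; 0.0791 without MTX library 2). Library 2 was highest and library 5 lowest in MTX for both, where library 5 lay within the control range. Reads of closely related tubulin genes may be split between them. Of 45 keratin and cell junction genes, 3 were called higher: the hepatocyte keratins Krt8 (1.6-fold, adjusted p = 0.0487; 0.107 without control library 5; corrected 0.0794) and Krt18 (1.49-fold, adjusted p = 0.0416; 0.102 without MTX library 2; corrected 0.0885), and the nuclear lamin Lmna (1.44-fold, adjusted p = 0.034; 0.0895 without MTX library 2). The share of all genes called higher was 2.06%, and 17 of the 45 had a positive log2 fold change. Each of these 3 was called in 2 or 3 of the 10 fits that left out a library, and 1 member of the list was called after the length and GC correction.

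The surface protein genes Cd302, Tspan4 and Ifitm2 were each called in all 10 such fits, as the rule that named them required. Cd302, a C-type lectin receptor, was at 156, 187, 178, 191 and 174 CPM in control and 311, 261, 242, 249.9 and 314 CPM in MTX (1.56-fold, adjusted p = 0.00276). Tspan4, a tetraspanin, rose 1.6-fold from 34.2 ± 3.33 to 54.7 ± 8.52 CPM (adjusted p = 0.00883). Ifitm2, of a family that restricts virus entry, rose 1.47-fold from 77.9 ± 4.37 to 114 ± 10.1 CPM (adjusted p = 0.00276). In all 3 the groups did not overlap, which the rule also required.

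Among enzymes and lipid handling genes, members rose in small numbers spread over several pathways. Ces1d (chromosome 8, 93166068 to 93197838, minus strand), a carboxylesterase that hydrolyses lipid esters and drugs, was at 375, 544, 446, 569 and 462 CPM in control and 914, 729.8, 729, 814 and 805 CPM in MTX. It rose 1.67-fold (adjusted p = 0.00276), with no overlap between the groups. Gsta3, a glutathione S-transferase, rose 1.6-fold from 748 ± 117 to 1195 ± 99.2 CPM (adjusted p = 0.00401). Isyna1, which makes inositol phosphate from glucose 6-phosphate, was at 10.6, 14.4, 7.32, 11.8 and 9.83 CPM in control and 28.9, 21.2, 18.1, 18 and 34.8 CPM in MTX (2.24-fold, adjusted p = 0.0108). Reads of related Ces1 and Gsta genes may be split between them.

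Of 35 genes for lipoprotein receptors, lipases and related proteins, 3 were called higher and none lower, against 2.06% of all genes called higher, and 2 after the length and GC correction. Lpl, lipoprotein lipase, was at 180.2, 189, 148, 165 and 210.2 CPM in control and 274, 261, 241, 336 and 349.9 CPM in MTX, with the groups apart (1.64-fold, adjusted p = 0.0196). Lcat, which esterifies plasma cholesterol, rose 1.3-fold (adjusted p = 0.0293; 0.0757 without control library 1; 0.127 after the length and GC correction). Pemt, which makes phosphatidylcholine by methylation, rose 1.39-fold from 271 ± 29 to 376 ± 40.4 CPM (adjusted p = 0.0253; 0.0688 without MTX library 2; corrected 0.0513). Lipe, hormone-sensitive lipase, fell by 0.70 ± 0.16 in log2 units, from 17.8 ± 2.34 to 10.9 ± 2.32 CPM (adjusted p = 0.0265; 0.0736 without MTX library 2).

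In sugar metabolism, 3 of 36 glycolysis, fructose and pentose phosphate genes were called higher and none lower, against 2.06% of all genes called higher, with 27 positive and a median of 0.14. After the length and GC correction, 2 were called and the median was 0.08. They were Pgk1 (1.29-fold, adjusted p = 0.0321; 0.0838 without MTX library 2), phosphoglycerate kinase, Ldha (1.34-fold, adjusted p = 0.0388; 0.103 without MTX library 1; corrected 0.0653), lactate dehydrogenase A, and Ldhd (1.27-fold, adjusted p = 0.0402; 0.0938 without MTX library 1), a dehydrogenase of D-lactate. With MTX library 5 left out, 7 members were called, and in some other fits with a library left out none was. Ppp1r3c, which targets a phosphatase to glycogen, was at 38.9, 44.5, 50.2, 54.9 and 86.2 CPM in control and 115, 163, 107, 127 and 71.8 CPM in MTX (2.13-fold, adjusted p = 0.0225; 0.0637 without MTX library 2), and the groups overlapped through MTX library 5. Gpd2, the mitochondrial glycerol 3-phosphate dehydrogenase, was at 54.4, 56.4, 70.4, 65.9 and 56.9 CPM in control and 32.3, 37.9, 35.5, 38.5 and 43.3 CPM in MTX. All MTX libraries lay below all controls, and Gpd2 fell by 0.70 ± 0.13 in log2 units (adjusted p = 0.0131).

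Pnp, the purine nucleoside phosphorylase, rose 1.38-fold from 41.8 ± 3.78 to 57.9 ± 7.94 CPM (adjusted p = 0.0229; 0.0635 without MTX library 1). Slc23a2, a vitamin C transporter, was at 52.6, 43.2, 53.3, 46.2 and 40.1 CPM in control and 25.3, 19.5, 25.7, 25.1 and 43.4 CPM in MTX, where library 5 stood apart from the rest at the level of the controls (log2 fold change -0.76 ± 0.19, adjusted p = 0.0355; 0.0944 without MTX library 2; corrected 0.0548). Adh1, the main alcohol dehydrogenase of liver, rose 1.44-fold to 1343 ± 196 CPM (adjusted p = 0.0262; 0.0736 without MTX library 2; corrected 0.0533), and with Akr1c19 and Akr1c20 it made up the 3 called of 42 aldehyde, alcohol and aldo-keto dehydrogenase genes, of which 1 was called after the length and GC correction. These 3 were 7.14% of the list, against 2.06% of all genes called higher.

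Genes for transcription factors were lower more often than higher. Of 879 tested genes to which the deposited table gives a transcription factor family, 9 were called higher and 23 lower, against 2.06% and 1.6% of all genes, and their median log2 fold change was -0.08. Of 406 with C2H2 zinc fingers by that table, 10 were called lower and none higher. Over all 879 genes, 14 were called higher and 8 lower after the length and GC correction, so the excess of lower calls did not hold under it. Among those called, Zfp941 was at 2.49, 3.73, 3.27, 2.52 and 2.64 CPM in control and 0.617, 0.762, 1.46, 0.739 and 0.847 CPM in MTX and fell by 1.72 ± 0.30 in log2 units (adjusted p = 0.00883; 0.0118 after the correction).

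The Sp family, whose members bind GC boxes, gave 2 of the lower genes. Sp4 (chromosome 12, 118234933 to 118301440, minus strand) was at 10.7, 12.5, 8.71, 8.99 and 9.47 CPM in control and 4.5, 4.63, 4.54, 4.49 and 6.29 CPM in MTX. All MTX libraries lay below all controls, with library 5 above the other 4 MTX libraries, and Sp4 fell by 1.04 ± 0.15 in log2 units (adjusted p = 0.00287; 0.00185 after the length and GC correction). Sp1 (chromosome 15, 102406143 to 102436404, plus strand), picked once its values were known, was at 73, 70.4, 63.6, 63.5 and 73.7 CPM in control and 43.1, 44.9, 49.5, 50.8 and 59.8 CPM in MTX and fell by 0.47 ± 0.09 in log2 units (adjusted p = 0.0162; 0.0548 without MTX library 1). Pou2f1 (chromosome 1, 165865154 to 166002678, minus strand), the octamer-binding factor Oct-1, was at 11.5, 14, 16.3, 14.8 and 19.5 CPM in control and 6.17, 8.61, 9.43, 6.52 and 8.41 CPM in MTX, without overlap, and fell by 0.96 ± 0.15 in log2 units (adjusted p = 0.00479). The 250 bases before the RefSeq start of these 3 genes (GRCm38.p6) are shown because the GC box is the element that Sp factors bind. They are written 5′ to 3′ on the gene's strand, with each GC box (GGGCGG or its complement CCGCCC) in capitals.
Sp4, chr12:118301441-118301690, minus strand: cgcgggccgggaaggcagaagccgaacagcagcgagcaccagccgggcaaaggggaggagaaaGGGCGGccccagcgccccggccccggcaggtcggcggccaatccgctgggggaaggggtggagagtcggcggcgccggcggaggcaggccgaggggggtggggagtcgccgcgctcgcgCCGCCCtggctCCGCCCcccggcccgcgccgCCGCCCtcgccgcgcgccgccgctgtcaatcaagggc
Sp1, chr15:102406066-102406315, plus strand: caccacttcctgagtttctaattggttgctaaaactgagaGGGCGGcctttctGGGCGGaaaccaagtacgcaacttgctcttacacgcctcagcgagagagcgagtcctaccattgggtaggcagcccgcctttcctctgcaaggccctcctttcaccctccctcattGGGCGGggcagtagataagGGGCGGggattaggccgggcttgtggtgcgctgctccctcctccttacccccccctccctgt
Pou2f1, chr1:166002635-166002884, minus strand: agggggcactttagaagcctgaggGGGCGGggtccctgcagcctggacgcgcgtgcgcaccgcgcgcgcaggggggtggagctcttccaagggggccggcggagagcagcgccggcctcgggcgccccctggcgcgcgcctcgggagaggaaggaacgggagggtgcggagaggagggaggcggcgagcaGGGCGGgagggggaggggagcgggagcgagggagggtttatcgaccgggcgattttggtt
The Sp4 and Sp1 windows held 4 GC boxes each and the Pou2f1 window held 2. Such boxes are common: 57.7% of 10338 tested genes with a RefSeq promoter had at least 1 in this window, on either strand, as did 105 of 175 genes called lower and 114 of 219 called higher. The TATA box, CCAAT box, cyclic AMP response element core, D-box and glucocorticoid response element were also searched and are not listed. The AP-1 element TGANTCA was in 7.76% of windows of genes called higher (17 of 219), 1.71% of those called lower (3 of 175) and 4.42% of all. The STAT element TTCNNNGAA was in 8.22%, 5.14% and 6.08%. The E-box CACGTG went the other way, with 4.57%, 9.14% and 8.38%. These are counts of letters, and binding was not measured.

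Of the other factors, Zbtb16, encoding the repressor PLZF, was at 19.8, 13.1, 10.5, 24.3 and 13 CPM in control and 30.3, 34, 68.4, 61.5 and 36.1 CPM in MTX. MTX libraries 3 and 4 were highest, unlike in the phagocyte genes, and the groups were apart (2.85-fold, adjusted p = 0.00994). Srf, the serum response factor, was at 12.4, 14.5, 16, 15.8 and 18.3 CPM in control and 28.4, 22.1, 22, 21.2 and 20.9 CPM in MTX (1.49-fold, adjusted p = 0.0196; 0.0571 without MTX library 1), while Elk4, which encodes a partner of Srf, fell by 0.49 ± 0.12 in log2 units (adjusted p = 0.0321; 0.0838 without MTX library 2; corrected 0.0568); both were chosen after their values were seen. Hnf4a, a master regulator of hepatocytes, rose 1.35-fold from 536 ± 62.4 to 722 ± 75.6 CPM (adjusted p = 0.0345; 0.0895 without MTX library 2). Nr3c1, the glucocorticoid receptor, fell by 0.48 ± 0.11 in log2 units, from 156 ± 18.3 to 112 ± 14.5 CPM (adjusted p = 0.0273; 0.0746 without control library 1). Banp, a nuclear protein that binds promoters and matrix attachment regions, was at 8.32, 3.84, 4.82, 6.68 and 5.57 CPM in control and 20.1, 15.7, 20.8, 13.1 and 13.8 CPM in MTX, without overlap (2.85-fold, adjusted p = 0.00276).

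**Figure D5:**
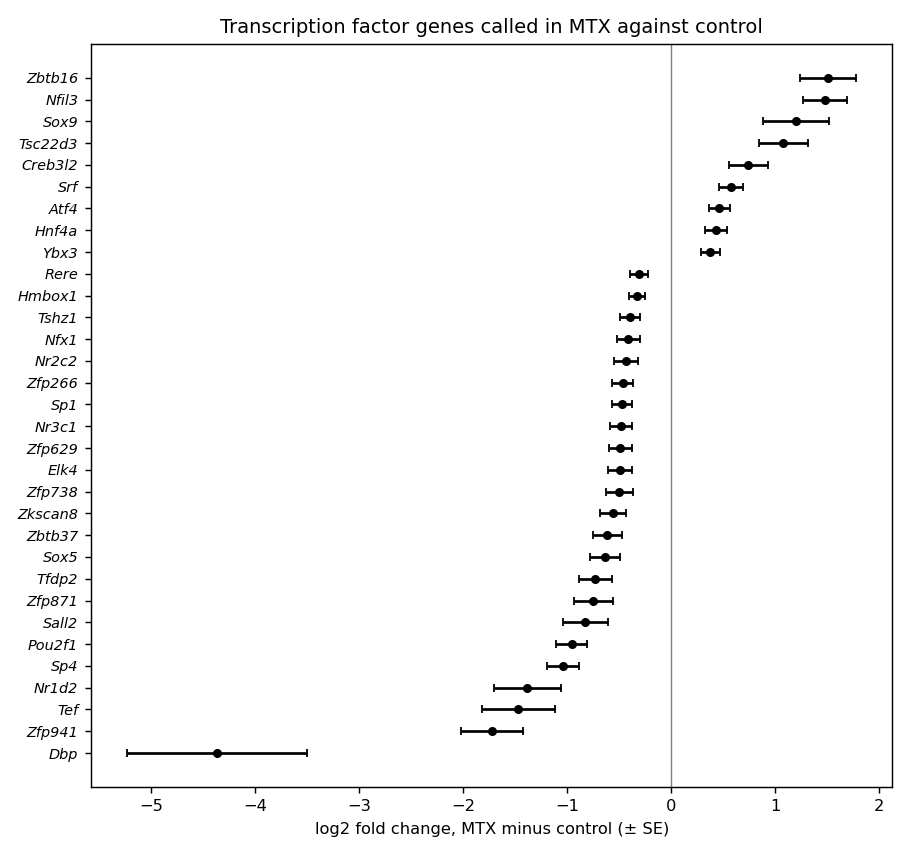
Log2 fold change (MTX minus control) ± SE of the 32 called genes to which the deposited table gives a transcription factor family, from edgeR over 5 libraries a group. The 9 higher genes lie right of 0, with Zbtb16 at 1.51, and the 23 lower genes lie left of it, with Sp4 at -1.04.

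Of 101 chromatin modifying enzyme genes, 5 were called lower and none higher, against 1.6% of all genes called lower, and 29 had a positive log2 fold change with a median of -0.10. The 5 were the histone demethylase Kdm3b, the acetyltransferase Kat6b, the remodelling ATPases Smarca2 and Chd6, and the DNA demethylase Tet3. Kdm3b was at 46.5, 48.4, 45.5, 48.2 and 48.9 CPM in control and 39.5, 37.8, 39, 37.1 and 37.7 CPM in MTX, without overlap, and fell by 0.31 ± 0.06 in log2 units (adjusted p = 0.015; 0.0509 without MTX library 2; 0.0548 after the length and GC correction). After that correction, none of the 101 was called lower and the median was 0.01. Their median transcript length was 6449 bases.

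Genes of RNA processing were called in both directions. Of 85 mRNA decay and RNA-binding stress regulators, 1 was called higher (Ybx3) and 2 lower (Xrn1 and Hnrnpd), against 2.06% and 1.6% of all genes, and 40 had a positive log2 fold change with a median of -0.03. After the length and GC correction, 4 were called higher and 2 lower and the median was 0.07. The other genes named, apart from Srsf5, Leng8 and Tnrc6b, were chosen after their values were seen, so their direction is a description. Of 12 genes picked in all, 2 were called higher and 9 lower, against 2 and 3 after the correction. Srsf5, a splicing factor of the SR family, was at 154, 149, 156, 162 and 169 CPM in control and 88.5, 83.8, 113, 94.5 and 125 CPM in MTX. It fell by 0.64 ± 0.12 in log2 units with the groups apart (adjusted p = 0.0116; 0.0118 after the length and GC correction). Tra2b, a splicing regulator that also carries SR domains, moved the other way, from 33.5, 35.5, 30.6, 30.1 and 38.6 CPM in control to 51.4, 55.9, 49.8, 42.7 and 48.2 CPM in MTX (1.47-fold, adjusted p = 0.00479). Xrn1, the main cytoplasmic exonuclease for decapped mRNA, fell by 0.50 ± 0.08 in log2 units from 33.7 ± 2.46 to 23.8 ± 2.56 CPM (adjusted p = 0.007), and Tnrc6b, which couples microRNAs to silencing, fell by 0.51 ± 0.10 from 74.4 ± 7.92 to 52.3 ± 6.39 CPM (adjusted p = 0.0143; 0.0772 after the correction).

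Leng8, Srpk2 and Ddx17 were also lower. Leng8 was at 53.7, 38.3, 54.8, 53.5 and 56.1 CPM in control and 34.6, 34.2, 38.2, 31.4 and 31.6 CPM in MTX (fell by 0.59 ± 0.10 in log2 units, adjusted p = 0.00994), and control library 2 lay close to the MTX libraries. The RNA helicase gene Ddx17 fell by 0.48 ± 0.11 (adjusted p = 0.0253; 0.069 without control library 1; corrected 0.0666) and Srpk2, a kinase of SR proteins, by 0.49 ± 0.11 (adjusted p = 0.0315; 0.0825 without MTX library 2; corrected 0.0805). The nuclear RNA Neat1, the scaffold of paraspeckles, was at 168, 189.5, 234, 222 and 165 CPM in control and 115, 96.7, 135, 95.8 and 60.4 CPM in MTX, without overlap. It fell by 0.96 ± 0.23 in log2 units (adjusted p = 0.0325; 0.0801 without MTX library 2; 0.129 after the length and GC correction), and its level in MTX+nitrate was 269.7 ± 94.5 CPM. Its neighbour Malat1 was at 366, 253, 284, 214 and 289 CPM in control and 159, 209, 216, 185 and 177 CPM in MTX, and missed the threshold (log2 fold change -0.57 ± 0.19, adjusted p = 0.0962), with the groups overlapping only between MTX library 3 and control library 4. These 2 RNAs are counted in the lower share of long non-coding RNA given above.

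Among predicted and non-coding genes, Gm32511 was at 3.62, 3.45, 2.88, 3.73 and 2.58 CPM in control and 0.863, 1.05, 1.4, 0.862 and 1.15 CPM in MTX and fell by 1.60 ± 0.25 in log2 units (adjusted p = 0.00417). It overlaps Aqp9 on the other strand, and since the strand setting of the counts is not given, reads of the 2 genes cannot be told apart. Gm26588, which overlaps Mgll, fell by 1.24 ± 0.23 (adjusted p = 0.0129), and Gm26684, which overlaps Enpp2, by 1.11 ± 0.22 (adjusted p = 0.0188; 0.0563 without MTX library 1). Aqp9 (adjusted p = 0.576), Mgll (adjusted p = 0.124) and Enpp2 (adjusted p = 0.905) were not called. The higher predicted and non-coding genes with the lowest p are processed pseudogenes, whose reads may belong to their parent genes. They were Gm6136 (1.33-fold, adjusted p = 0.0131), Gm10275 (1.45-fold, adjusted p = 0.0196) and Rpsa-ps2 (1.62-fold, adjusted p = 0.0291). With a library left out, they stayed called in 10, 7 and 4 of the 10 fits. Rpsa-ps2 also lost its call under the length and GC correction.

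TGF-beta, BMP and growth factor receptor genes leaned downwards, and insulin and mTOR genes did not. Of 55 TGF-beta and BMP signalling genes, 13 had a positive log2 fold change with a median of -0.21. Of the 55, 2 (3.64%) were called, both lower, against 3.66% of all genes called and 1.6% called lower. These were Tgfbr3, the co-receptor betaglycan, which fell by 0.58 ± 0.13 in log2 units from 14.8 ± 2.1 to 9.95 ± 1.16 CPM (adjusted p = 0.0306; 0.0814 without MTX library 2; corrected 0.0741), and Acvr1b, an activin receptor, which fell by 0.51 ± 0.13 from 23.9 ± 2.33 to 16.8 ± 3.22 CPM (adjusted p = 0.0346; 0.0937 without control library 1). After the length and GC correction, 19 of the 55 were positive, the median was -0.10 and 1 was called. Of 56 EGF, HGF and FGF signalling genes, 2 were called lower, the receptor Fgfr3 (47.4 ± 13 to 31.9 ± 4.61 CPM, adjusted p = 0.0457; 0.111 without MTX library 1; corrected 0.0697) and the pathway inhibitor Spred2 (20.9 ± 2.89 to 13.9 ± 3.05 CPM, adjusted p = 0.0467; 0.121 without control library 1; corrected 0.0592), with 21 positive, and none was called after the correction. In insulin and mTOR signalling, Irs2, the insulin receptor substrate, was higher (1.97-fold, adjusted p = 0.0437; 0.121 without MTX library 1), and 2 genes of restraints on growth signalling, Sesn3 (102 ± 13.2 to 69.9 ± 11.3 CPM, adjusted p = 0.0265; 0.0681 without MTX library 2; corrected 0.0849) and Tsc1 (54.8 ± 4.81 to 41.4 ± 6.49 CPM, adjusted p = 0.0467; 0.118 without MTX library 2; corrected 0.119), were lower. Of the 62 genes tested there, 32 had a positive log2 fold change with a median of 0.008, and after the length and GC correction 1 was called higher and none lower. Before the correction, the share called was 3.57% of the EGF, HGF and FGF genes and 4.84% of these 62, against 3.66% of all genes.

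Endothelial markers leaned the same way without any passing the threshold. Of 18, 16 had a negative log2 fold change with a median of -0.37, and none was called by edgeR, with 7 at an unadjusted p under 0.05 and 4 called lower by DESeq2 (lowest adjusted p 0.0546, of Oit3). Their summed level was 432 to 625 CPM in control and 327 to 471 CPM in MTX, with overlap. After the length and GC correction the median was -0.28 and 16 were negative. Kdr, the main receptor for vascular endothelial growth factor, had a log2 fold change of -0.58 ± 0.18 (adjusted p = 0.0757), and Flt4 of -0.52 ± 0.16 (adjusted p = 0.0707). Of 47 semaphorin, ephrin and receptor genes, which guide vessels and axons, 12 had a positive log2 fold change with a median of -0.17, and none was called by edgeR or DESeq2, with 7 at an unadjusted p under 0.05.

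Matrix genes that were lower, chosen after their values were seen apart from those on the protease and proteoglycan lists, were mostly at low levels. Of 10 such genes, all called lower, 5 stayed called after the length and GC correction. Col4a4, a basement membrane collagen chain, was at 2.54, 5.06, 3.55, 1.84 and 1.32 CPM in control and 0.678, 0.879, 0.699, 0.492 and 0.303 CPM in MTX, without overlap, and fell by 2.22 ± 0.42 in log2 units (adjusted p = 0.0143). It stayed called in each fit that left out a library. Gpc3, a glypican, was at 5.57, 6.12, 4.1, 0.736 and 1.44 CPM in control and 1.36, 0.293, 0.582, 0.923 and 0.908 CPM in MTX (log2 fold change -2.14 ± 0.53, adjusted p = 0.0344; 0.088 without MTX library 2), and the leucine-rich proteoglycan Fmod at 3.84, 6.73, 3.99, 0.421 and 2.28 and 0.802, 0.469, 0.757, 0.492 and 1.33 CPM (log2 fold change -2.15 ± 0.58, adjusted p = 0.0496; 0.118 without MTX library 2; corrected 0.0554). For both, control libraries 4 and 5 were below control libraries 1 to 3. Control library 4 lay within the MTX range for Gpc3 and below all MTX libraries for Fmod. Svep1 (3.02 ± 1.36 to 0.928 ± 0.311 CPM, adjusted p = 0.031; 0.0789 without MTX library 2), the laminin chain Lamb2 (11.9 ± 1.21 to 8.32 ± 0.897 CPM, adjusted p = 0.0241; 0.0637 without MTX library 2) and the metalloprotease inhibitor Timp3 (12.6 ± 0.867 to 8.41 ± 1.02 CPM, adjusted p = 0.0231; 0.0637 without MTX library 2) were also lower. Of 16 stellate cell and fibroblast markers, none was called by edgeR or DESeq2 and 2 had an unadjusted p under 0.05, and 8 were positive and 8 negative (summed level 844 to 1368 CPM in control and 833 to 1141 CPM in MTX).

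Several large scaffold and adaptor genes were among the lower genes called in each fit that left out a library. Nav2, a neuron navigator protein, was at 56, 68.9, 69.5, 61 and 62.1 CPM in control and 35.3, 38.6, 32.6, 37.9 and 33.1 CPM in MTX, without overlap, and fell by 0.84 ± 0.14 in log2 units (adjusted p = 0.00883). Sh3pxd2a, a scaffold of podosomes, fell by 0.81 ± 0.12 (adjusted p = 0.00328), Plekha6 by 0.74 ± 0.11 (adjusted p = 0.00414) and Plekhg1 by 0.93 ± 0.17 (adjusted p = 0.0102). C1qtnf1, a secreted protein with a C1q domain, was at 14.6, 12.1, 11.7, 14 and 14.2 CPM in control and 8.2, 5.57, 6.81, 8.74 and 7.08 CPM in MTX and fell by 0.87 ± 0.14 (adjusted p = 0.00567). It was at 13.5 ± 2.05 CPM in MTX+nitrate, and Nav2 at 65.8 ± 17.6 CPM. Nav2, Banp, Arpc1b, Leng8, Xrn1, Adh1, Gsta3, Hnf4a, Serpina3m, Sqstm1, Ddx17, Ldhd, Smarca2, Eef1d, Elk4, Csf1r, Tspan4, Mrps24, Mrpl49, Pex3, Srpk2, Timp3, Coro1a and Prtn3 overlap other tested genes, whose reads may not be told apart from theirs.

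In a further set of functions no member was called by edgeR. These lists held 18 NAD and nicotinamide, 16 polyamine, 29 pyruvate dehydrogenase and tricarboxylic acid cycle, 30 sphingolipid, 29 retinoid, 21 peroxisome biogenesis and 29 amino acid transporter genes, 42 autophagy genes, 44 mitochondrial import genes, 32 Notch and Hedgehog genes, 27 hypoxia response genes, 40 flavin monooxygenase, epoxide hydrolase and acyltransferase genes and 27 acyl-CoA synthetase and thioesterase genes. In each list 2 to 11 genes had an unadjusted p under 0.05, and DESeq2 called 0 to 5. Of 5 erythroid markers none was called by edgeR or DESeq2 and 1 had an unadjusted p under 0.05, and of 2 adipose, pancreatic and muscle markers none had. Among the genes of these lists nearest to the threshold were Asah1, the acid ceramidase (0.0548), Slc43a1, an amino acid carrier (0.058), Pex3, a peroxisome assembly protein (0.0702), and Sqstm1, the autophagy receptor p62 (0.0727). Sqstm1 was at 374, 419.5, 394, 357 and 357 CPM in control and 467, 484, 495, 478 and 448 CPM in MTX, and the groups did not overlap although the gene missed the threshold. Of the 521 called genes, 104 were on any of the 62 lists, which hold 2646 of the tested genes.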

How the data were processed

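The deposited table holds raw read counts of each gene in 15 mouse liver libraries, without normalisation, and per the file headers it pairs genes with symbols, coordinates and transcription factor families. Per the labels' protocols, column-purified total RNA entered a SMARTer mRNA-seq kit. The build was GRCm38 (mm10), per the submitters' processing notes, while aligner, counting tool and strand setting are not given in the sources used. Of 54532 genes, 14219 passed filterByExpr. They were fitted in edgeR 4.0.16 (R 4.3.3) with TMM scaling and a quasi-likelihood model over all 3 groups with 12 residual degrees of freedom. P-values for MTX minus control were adjusted by Benjamini-Hochberg over all 14219 genes, and the common biological coefficient of variation was 0.223. The fit was tested on simulated counts. The 20 pairs of libraries within the 2 groups differed by 24.1 to 53.1 times the sampling variance, so none was a duplicate.

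The members and lists were chosen with earlier results of these data known. Genes were named by a rule. It took the 15 genes per direction with the largest change and the 10 with the lowest p among those outside an earlier text, called in every fit that left out a library, averaging 2 CPM or more and without overlap. It added up to 4 called members per list (or the 2 lowest p-values in a list without calls) and 3 non-coding or predicted genes per direction. The text marks genes picked once their values were known, to which Alb, Ttr, Clec4f, Csf1r and Kdr are added as known markers. Library measures were compared by two-sided exact permutation over 252 assignments, whose smallest p is 0.0079. The length and GC correction came from library-wise splines (mgcv 1.9.3), using for each gene its longest transcript in GENCODE M21, found for 14208 genes. Other alternatives were median-of-ratios scaling, DESeq2 1.42.0, limma-voom (limma 3.58.1), other filters, a 2-group fit, a replicate block, a stricter threshold and leaving out each library. Some named genes are not reported here.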

Additional observations from a re-analysis of the deposited data

Results flagged for a closer look

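In 18 of 284 groups of 5 libraries (142 genes described, 2 groups each), 1 library stood apart from the other 4 by Dixon's test at its 95% level, where chance gives about 1 in 20. The 142 leave out Nlrc5 and Alas2, given under Other observations. Alas2 in control library 3 also stood apart by this test and is not among the 18. MTX library 5 was the one in 5 cases. It was highest for Sp4 (6.29 CPM) and Slc23a2 (43.4 CPM) and lowest for Pemt (305 CPM), Fbl (24.9 CPM) and Eif5a (349 CPM), in each case on the side of the controls. MTX library 1 stood highest for Srf (28.4 CPM), MTX library 2 highest for Atp6v1g1 (73.7 CPM) and lowest for Kat6b (13.8 CPM), and MTX library 3 highest for Zfp941 (1.46 CPM). Control library 2 was lowest for Leng8 (38.3 CPM), Elk4 (48.5 CPM) and Tet3 (44.0 CPM) and highest for Cfl1 (156 CPM), Tubb2a (60.8 CPM) and Irs2 (65.4 CPM), each on the side of the MTX group. Control library 1 held the single count of Acod1 in control (0.0540 CPM), and control library 5 was lowest for Des (3.95 CPM) and highest for Ccl6 (7.43 CPM). Of these genes, Sp4, Leng8, Atp6v1g1 and Zfp941 stayed called in each fit that left out a library.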

How the results depend on the processing

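Against 521 calls, 293 higher and 228 lower, DESeq2 gave 1125 (609 higher, 516 lower), an adjusted p under 0.01 gave 43 (30 and 13), the fit over the control and MTX libraries only gave 350 (192 and 158), and the length and GC correction 364 (254 and 110). With a library left out, calls ran from 86 to 995, the higher ones from 51 to 550 and the lower ones from 31 to 445. Median-of-ratios scaling (497), limma-voom (401), no expression filter (379) and at least 1 CPM in 5 libraries (522) stayed within 1.5 times. A replicate block left 142 calls (79 higher, 63 lower), and 79 together with the length and GC correction (56 and 23). The numbers share no stated source, and control and MTX libraries of the same number had correlations of -0.139 to 0.0195 in their deviations, so the block is not a pairing of animals. No called gene that is named changed direction under any alternative run. Of the calls, 291 were shared with the length and GC correction. The cause of these differences was not tested. Of the 142 genes counted above, 123 were called. Of these 123, 25 lost the call under limma-voom, 34 of 119 in the fit over the control and MTX libraries only, 38 under the length and GC correction, 72 with the block and 7 to 82 with a library left out. Genes with 0 counts in some control libraries, such as Gpnmb and Acod1, have fold changes that rest on few reads there.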

Other observations

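In control library 3, Alas2, the heme synthesis enzyme of red cell precursors, stood at 139 CPM against 9.01 to 15.7 CPM in the other control libraries, and it was not called (13.1 ± 1.41 CPM in MTX, adjusted p = 0.151). Of 7 cholangiocyte (bile duct cell) markers tested, 2 were called higher in MTX, against 2.06% of all genes. They were Spp1, encoding osteopontin, which macrophages also make, and Sox9. Spp1 was at 43.7, 39, 45.8, 58.2 and 29.8 CPM in control and 251, 128, 42.3, 89 and 173 CPM in MTX, where libraries 1 and 5 were highest and library 3 lay within the control range, as in the phagocyte genes. Sox9 was at 2.7, 5.79, 5.1, 4.36 and 4.37 CPM in control and 7.34, 7.21, 5.24, 13.8 and 17.8 CPM in MTX, where libraries 4 and 5 were highest. Spp1 (adjusted p = 0.015) was called in each of the 10 fits that left out a library, and Sox9 (adjusted p = 0.0467) in 2 of them. Sox9 also lost its call under limma-voom. Of 54 pattern recognition genes, 2 were called, Trem2 higher and Tlr3, the sensor of double-stranded RNA, lower, which is about the 3.66% of all genes called. Tlr3 was at 9.51, 10.3, 6.99, 8.83 and 9.11 CPM in control and 5.55, 4.92, 4.37, 5.48 and 5.93 CPM in MTX, without overlap (adjusted p = 0.0239; 0.0637 without MTX library 2). Nlrc5, the activator of class I antigen presentation genes, fell by 0.66 ± 0.13 on the log2 scale from 21.8 ± 2.92 to 13.8 ± 1.53 CPM (adjusted p = 0.0165; 0.0553 without MTX library 1). Nlrc5 and Alas2 overlap other tested genes.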
